A study of Mus musculus with 16 samples.

Results

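The genes described here are 36 genes of the lysosome, 23 encoding hydrolases and their activators, 8 encoding lysosomal membrane proteins and 5 encoding parts of the proton pump. They were taken by name from the Agilent arrays, with every probe of each gene, and all 36 were among the 17984 genes tested. Cerebella came from 3-week-old mice of the Npc1 (BALB/cNctr-Npc1m1N/J) strain, Npc1-/- or wild type (Npc1+/+), bred in house from heterozygotes on a BALB/c background. Npc1-/- mice lack Npc1 in every cell from conception, so no cell type carried the loss alone. The RNA of each cerebellum, 500 ng, was labelled with Cy3 and hybridised to 1-colour arrays, 4 per genotype. The labels do not give the sex of any mouse.

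Lysosomes digest sphingolipids, glycosaminoglycans, glycan chains, lipids and proteins with soluble hydrolases that work at acid pH. The vacuolar ATPase pumps protons inward to set that pH, and heavily glycosylated membrane proteins line the organelle and carry its products and ions across. Npc1 is itself a lysosomal membrane protein that moves cholesterol out of the organelle, and in its absence cholesterol and sphingolipids collect there, with loss of cerebellar Purkinje cells as the disease advances. Many lysosomal genes carry a short palindromic promoter motif, the CLEAR element, which the transcription factor TFEB binds. The comparison asks whether transcripts of the hydrolases, and those of the membrane and pump genes, differ in level between the genotypes at this age.

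The probes of the 3 genes whose arrays separated by genotype, shown because the values below turn on them, began with these 30 of their 60 bases.
Man2b1: acactgaagcctatggaaatacgtaccttc
Gusb: ttagttttttggccttggctttgtgaactc
Cd63: tgtggggcctgcaaggagaactactgtctc
The files place them, in the mm7 build, at chr8:83686189-83686248 on the forward strand (Man2b1), at chr5:129227087-129227146 on the reverse strand (Gusb) and at chr10:128413370-128413583 on the forward strand (Cd63, a span longer than the probe). Whether each lies in coding sequence or in a UTR was not determined here.

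Promoters of 33 members, 39 in all, matched a RefSeq table of assembly GRCm38.p6 that gives 250 bases before and 50 bases after each gene start; Asah1, Atp6v1h and Laptm4b did not match. The core letters of the CLEAR element, TCACGTG read on either strand, were present in 12 of the 39 (30.8%), against 3.77% of all 32851 promoters of that length. The shorter CACGTG, which every such match holds, was in the same 12 and in 7.15% of all promoters. The palindrome TCACGTGA was in 5 of the 39 (Atp6v0d1, Atp6v1a, Cln3, Gla and Mcoln1; 12.8%, against 0.974%). The windows below are shown because they hold more than 1 match, with the matched letters in capitals.
Cln3: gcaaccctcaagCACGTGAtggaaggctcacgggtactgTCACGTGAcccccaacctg
Gla: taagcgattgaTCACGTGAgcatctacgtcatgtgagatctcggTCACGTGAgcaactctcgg
Mcoln1: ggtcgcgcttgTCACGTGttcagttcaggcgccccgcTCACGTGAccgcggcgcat
Lamp1: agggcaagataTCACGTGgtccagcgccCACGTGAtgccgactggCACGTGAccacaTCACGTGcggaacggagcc
They lie at chr7:126583340-126583397 on the reverse strand (Cln3), chrX:134601182-134601244 on the reverse strand (Gla), chr8:3500436-3500491 on the forward strand (Mcoln1) and chr8:13159088-13159163 on the forward strand (Lamp1). Lamp1 held 4 matches within these 76 bases, and the others 2 each. The remaining genes with a match were Arsa, Atp6v0d1, Atp6v1a, Gaa, Glb1, Lgmn, Naglu and Sgsh. A match describes the letters of the window and does not show binding.

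No member passed the test of the genotypes. Of the 36 genes, 0 reached an adjusted p under 0.05 (limma, Benjamini-Hochberg over all 17984 genes) in either direction, where 0.767% of all genes did, 0.734% higher and 0.0334% lower in Npc1-/- mice. The smallest adjusted p among them was 0.143. Without adjustment, 4 members had a p under 0.05 with a higher level in Npc1-/- mice, namely Man2b1, Cd63, Gusb and Cln3, where 5.09% of all genes did, and 0 had one with a lower level, where 2.31% did. Over all genes the number past the threshold was 138, and it was 58, 60, 55 and 86 when Npc1-/- replicates 1, 2 or 4 or wild-type replicate 4 was left out.

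Fold changes of the members were small and mostly above 0. The log2 fold change, Npc1-/- minus wild type, was positive for 26 of 36 members (72.2%) and for 46.6% of all genes, and its median was 0.065 over the members and -0.015 over all genes. It ran from -0.194 (Sgsh) to 0.528 (Man2b1). The 95% interval of a single gene, from 4 arrays a genotype, lay within a 1.5-fold difference either way (0.58 on the log2 scale) for 30 of the 36 members and for 65.7% of all genes. The 6 members whose interval reached past 1.5-fold were Man2b1, Cd63, Gusb, Hexa, Galc and Gaa, each on the side of a higher level in Npc1-/- mice. For those 6 genes a 1.5-fold increase was therefore within the error of the measurement.

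**Figure D1:**
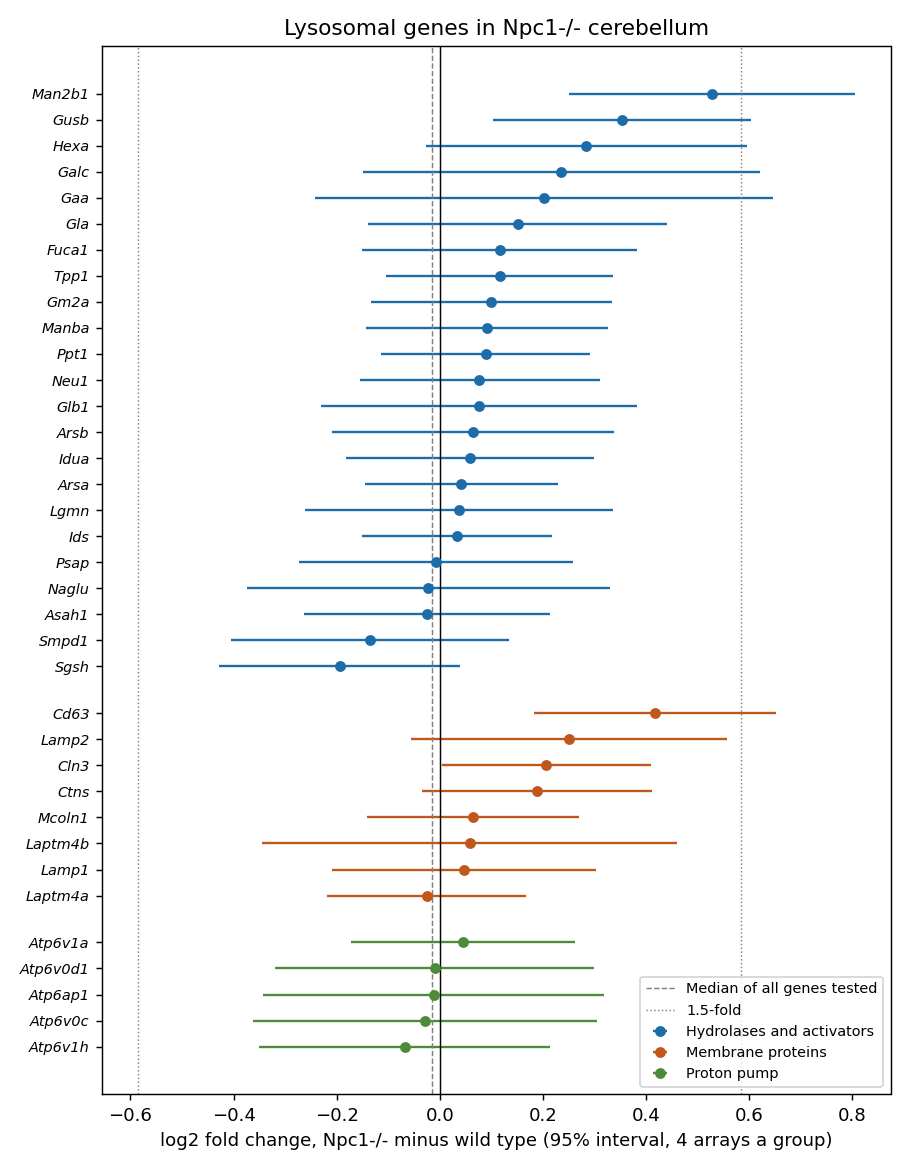
Log2 fold change of each of the 36 genes (x axis, Npc1-/- minus wild type, 4 arrays a genotype) with its 95% interval, grouped into hydrolases and activators, membrane proteins and proton pump; the dashed line is the median of all genes tested (-0.015) and dotted lines mark 1.5-fold. Of the points, 26 lie above 0 and 10 below, and the intervals of Man2b1, Gusb, Cd63 and Cln3 do not reach 0.

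Among the enzymes that trim glycan chains, Man2b1, the lysosomal alpha-mannosidase, had the largest difference of any member. Levels are given throughout as log2 signal after subtraction of each array's 75th percentile. Its level was 2.03, 2.18, 1.88 and 2.30 in Npc1-/- replicates 1 to 4 and 1.39, 1.73, 1.60 and 1.54 in wild-type replicates 1 to 4. All 4 Npc1-/- arrays lay above all 4 wild-type arrays. The log2 fold change was 0.53 ± 0.12 (SE), or 1.44-fold, with a limma adjusted p of 0.143, and by its p it ranked 270 of 17984 genes. On the 3 slides that carried both genotypes, each with a single wild-type array, the differences were 0.573, 0.429 and 0.485. When arrays were weighted by their quality, the adjusted p was 0.0334, the single alternative of 18 in which a member passed.

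The other glycan enzymes differed less, and their arrays overlapped. Gaa, which degrades glycogen, ranged from 3.23 to 3.87 in Npc1-/- mice and from 2.98 to 3.71 in wild type (log2 fold change 0.20 ± 0.19 (SE)). Fuca1, the alpha-fucosidase, ranged from 1.44 to 1.73 against 1.18 to 1.58 (0.12 ± 0.12). Manba, the beta-mannosidase, ranged from -0.17 to -0.02 against -0.37 to -0.01 (0.09 ± 0.10). The median log2 fold change of these 4 enzymes was 0.160, and 0 of the 4 passed the test, where 0.767% of all genes did.

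Among the 6 enzymes that degrade glycosaminoglycans, Gusb, the beta-glucuronidase, had the largest difference. Its signal was -0.46, -0.38, -0.57 and -0.20 in the Npc1-/- arrays and -0.90, -0.63, -0.72 and -0.78 in the wild-type arrays, again with no overlap. The group means were -0.40 ± 0.15 and -0.76 ± 0.12 (SD, n = 4), a log2 fold change of 0.35 ± 0.11 (SE), 1.28-fold, with a limma adjusted p of 0.378. A dimmer Gusb probe gave 0.409, with 3 of 4 Npc1-/- and 2 of 4 wild-type arrays well above background.

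Sgsh, the heparan N-sulfatase, was the member with the most negative value. It ranged from -0.38 to 0.00 in Npc1-/- mice and from -0.03 to 0.10 in wild type, so the groups overlapped, with a log2 fold change of -0.19 ± 0.10 (SE) and a limma adjusted p of 0.752. A dimmer Sgsh probe gave -0.428 with an SE of 0.220, with 3 of 4 wild-type arrays well above background. The remaining enzymes of the group were near 0: Arsb, the arylsulfatase B, 0.07 ± 0.12, Idua, the alpha-iduronidase, 0.06 ± 0.11, Ids, the iduronate sulfatase, 0.03 ± 0.08, and Naglu, the alpha-N-acetylglucosaminidase, -0.02 ± 0.15. Of these 6 genes, 4 had a positive value (66.7%, against 46.6% of all genes), and their median was 0.046.

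The sphingolipid enzymes and their activators, 10 genes, included 7 with a positive and 3 with a negative log2 fold change (median 0.076). Positive values made up 70.0%, against 46.6% of all genes, and 0 passed the test, where 0.767% of all genes did. Hexa, the alpha subunit of beta-hexosaminidase, which acts on gangliosides, was at 2.69, 2.68, 2.41 and 2.50 in the Npc1-/- arrays and 2.00, 2.29, 2.57 and 2.27 in the wild-type arrays. Wild-type replicate 3 lay among the Npc1-/- arrays, and the other wild-type arrays lay below all of them. Its log2 fold change was 0.28 ± 0.14 (SE), 1.22-fold, with a limma adjusted p of 0.741.

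Psap, the precursor of the saposins that present sphingolipids to their enzymes, had the brightest probe of the hydrolase class. Its signal was 5.76, 5.81, 5.61 and 5.64 in the Npc1-/- arrays and 5.53, 5.58, 5.93 and 5.81 in the wild-type arrays. The Npc1-/- arrays fell inside the wild-type range, and the log2 fold change was -0.007 with a 95% interval of -0.272 to 0.258. The interval excludes a 1.5-fold difference in either direction.

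Galc, which removes galactose from the myelin lipid galactosylceramide, ranged from -3.27 to -3.02 in Npc1-/- mice and from -3.66 to -2.92 in wild type (log2 fold change 0.24 ± 0.17 (SE)). Gla, the alpha-galactosidase that degrades globotriaosylceramide, ranged from -2.11 to -1.85 against -2.45 to -1.94 (0.15 ± 0.13). Gm2a, the ganglioside activator that serves beta-hexosaminidase, ranged from 0.84 to 1.17 against 0.78 to 0.95 (0.10 ± 0.10). All 3 of these genes thus had wild-type and Npc1-/- arrays that overlapped.

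The sialidase Neu1 ranged from 3.43 to 3.64 in Npc1-/- mice and from 3.34 to 3.67 in wild type (log2 fold change 0.08 ± 0.10 (SE)). Glb1, the beta-galactosidase, ranged from 0.10 to 0.52 against -0.07 to 0.35 (0.08 ± 0.13), and Arsa, which desulfates sulfatide, from 2.22 to 2.38 against 2.18 to 2.29 (0.04 ± 0.08). Acid ceramidase, Asah1, ranged from 1.43 to 1.60 against 1.42 to 1.79 (-0.03 ± 0.11). Smpd1, the acid sphingomyelinase whose own loss causes Niemann-Pick disease types A and B, ranged from 4.56 to 4.85 against 4.67 to 5.07 (-0.14 ± 0.12, limma adjusted p = 0.753). None of the 4 Npc1-/- arrays reached the wild-type mean of Smpd1, though the ranges overlapped.

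The 3 members that act on proteins were close together. Tpp1, a peptidase that removes tripeptides, had a log2 fold change of 0.12 ± 0.10 (SE), with 3.17 to 3.49 in Npc1-/- mice and 3.23 to 3.33 in wild type. Ppt1, which strips palmitate from proteins, had 0.09 ± 0.09, with 3.27 to 3.47 against 3.14 to 3.31. Lgmn, the asparagine endopeptidase, had 0.04 ± 0.13, with 3.67 to 4.15 against 3.66 to 4.03. Over the whole hydrolase class, 18 of 23 genes had a positive value (78.3%, against 46.6% of all genes), and the median was 0.077. Of the 23, 0 passed, where 0.767% of all genes did.

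Of the membrane proteins, Cd63, a tetraspanin of late endosomes and lysosomes, had the largest difference. Its signal was 4.38, 4.54, 4.32 and 4.66 in the Npc1-/- arrays and 3.95, 4.09, 4.09 and 4.11 in the wild-type arrays. Every Npc1-/- array exceeded every wild-type array. The means were 4.48 ± 0.16 and 4.06 ± 0.07 (SD, n = 4), a log2 fold change of 0.42 ± 0.10 (SE), 1.34-fold, with a limma adjusted p of 0.189. Within the 3 slides with both genotypes the differences were 0.455, 0.430 and 0.371.

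Man2b1, Gusb and Cd63 were the 3 members whose groups did not overlap, all higher in Npc1-/- mice. They make up 8.33% of the members, against 2.96% of all genes for the same pattern, and 0 members had non-overlapping groups in the other direction, against 1.95%. The members were chosen with earlier results of these data known, and no test was made of these shares. The promoters of Man2b1, Gusb and Cd63 held no TCACGTG in the 300 bases searched.

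Lamp2, a glycoprotein of the limiting membrane that also serves in chaperone-mediated autophagy, was at 2.32, 2.46, 2.24 and 2.37 in the Npc1-/- arrays and 1.89, 1.97, 2.45 and 2.07 in the wild-type arrays. Wild-type replicate 3 lay with the Npc1-/- arrays and the other wild-type arrays below them, and the log2 fold change was 0.25 ± 0.13 (SE), with a limma adjusted p of 0.752. Cln3, the membrane protein mutated in juvenile Batten disease, was at -0.27, -0.35, -0.47 and -0.28 against -0.62, -0.44, -0.57 and -0.56. Npc1-/- replicate 3 fell below wild-type replicate 2, and the other 3 Npc1-/- arrays were above all wild-type arrays. The log2 fold change of Cln3 was 0.21 ± 0.09 (SE), with a limma adjusted p of 0.663.

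Laptm4a, a membrane-spanning protein of late endosomes and lysosomes, had the brightest probe of the membrane class and a difference near 0. Its signal was 4.45, 4.52, 4.62 and 4.61 in the Npc1-/- arrays and 4.54, 4.54, 4.66 and 4.57 in the wild-type arrays, a log2 fold change of -0.025 with a 95% interval of -0.218 to 0.167. Its relative Laptm4b ranged from 2.05 to 2.64 against 1.99 to 2.67 (0.06 ± 0.18 (SE)). The cystine exporter Ctns ranged from 1.67 to 1.94 against 1.55 to 1.76 (0.19 ± 0.10), and the calcium channel Mcoln1 from 3.98 to 4.14 against 3.86 to 4.08 (0.07 ± 0.09).

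Lamp1, an abundant glycoprotein of the limiting membrane and the standard marker of lysosomes, ranged from 4.34 to 4.66 in Npc1-/- mice and from 4.25 to 4.53 in wild type, where replicate 1 stood below the other 3 (4.49 to 4.53). Its log2 fold change was 0.05 ± 0.11 (SE), with a 95% interval of -0.209 to 0.303. Of the 8 membrane genes, 7 had a positive value (87.5%, against 46.6% of all genes), and the median was 0.127. Of the 8, 0 passed, where 0.767% of all genes did.

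**Figure D2:**
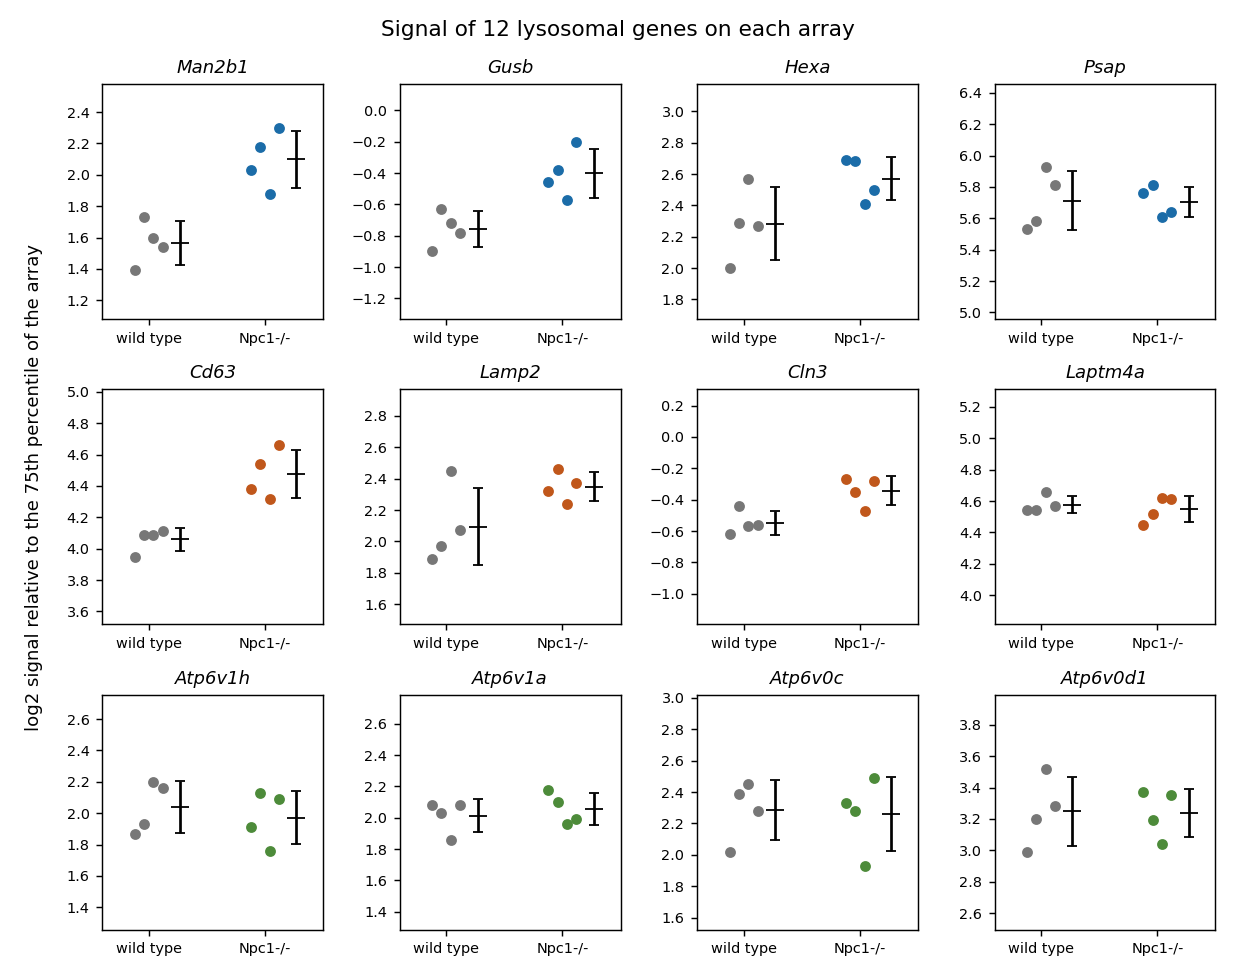
Signal of 12 genes on each array (y axis, log2 relative to the array's 75th percentile, each panel spanning 1.5 units), wild-type arrays in grey and Npc1-/- arrays in colour, replicates 1 to 4 from left to right, with the mean and SD beside them. The groups separate for Man2b1, Gusb and Cd63 and overlap in the other 9 panels.

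The proton pump genes showed the smallest differences, from -0.068 to 0.046. Atp6v1h, a subunit of the peripheral ATP-splitting sector, was at 1.91, 2.13, 1.76 and 2.09 in the Npc1-/- arrays and 1.87, 1.93, 2.20 and 2.16 in the wild-type arrays (log2 fold change -0.07 ± 0.12 (SE)). Atp6v1a, the catalytic subunit, was at 2.18, 2.10, 1.96 and 1.99 against 2.08, 2.03, 1.86 and 2.08 (0.05 ± 0.10). Arrays of both genotypes were mixed for each of these subunits.

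Atp6v0c, the proteolipid of the membrane sector, was at 2.33, 2.28, 1.93 and 2.49 in the Npc1-/- arrays and 2.02, 2.39, 2.45 and 2.28 in the wild-type arrays (log2 fold change -0.03 ± 0.15 (SE)). The membrane-sector subunit Atp6v0d1, with the brightest probe of the class, was at 3.37, 3.19, 3.04 and 3.35 against 2.99, 3.20, 3.52 and 3.28 (-0.01 ± 0.14). Atp6ap1, an accessory protein of the pump, ranged from 2.46 to 3.09 against 2.73 to 2.97 (-0.01 ± 0.14). The limma adjusted p of the 5 genes ran from 0.862 to 0.984, their intervals all lay within 1.5-fold either way, and their median was -0.012. That median was 0.078 without Npc1-/- replicate 3 and -0.097 without wild-type replicate 1.

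In the comparison of classes, the hydrolases had a median of 0.077 and the 13 membrane and pump genes together one of 0.047, a difference of 0.030 on the log2 scale. On each array the class was also summarised by the median over its genes of the signal minus that gene's wild-type mean. For hydrolases this was 0.053, 0.062, 0.012 and 0.226 in Npc1-/- replicates 1 to 4 and -0.173, 0.005, 0.088 and -0.010 in the wild-type arrays. Wild-type replicate 3 exceeded 3 of the Npc1-/- arrays, so the groups overlapped.

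For membrane proteins the values were 0.137, 0.203, 0.062 and 0.205 in the Npc1-/- arrays and -0.089, 0.054, 0.054 and -0.011 in the wild-type arrays, with no overlap. Without Cd63 they were 0.055, 0.198, 0.047 and 0.138 against -0.069, 0.075, 0.079 and -0.013, and the groups overlapped. For pump genes they were 0.111, 0.034, -0.283 and 0.100 against -0.165, 0.018, 0.157 and 0.031, with no separation. The hydrolase value minus that of the membrane and pump genes was -0.058, -0.026, 0.064 and 0.088 in the Npc1-/- arrays and -0.026, -0.027, 0.009 and -0.027 in the wild-type arrays, and its sign differed among arrays of both genotypes.

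**Figure D3:**
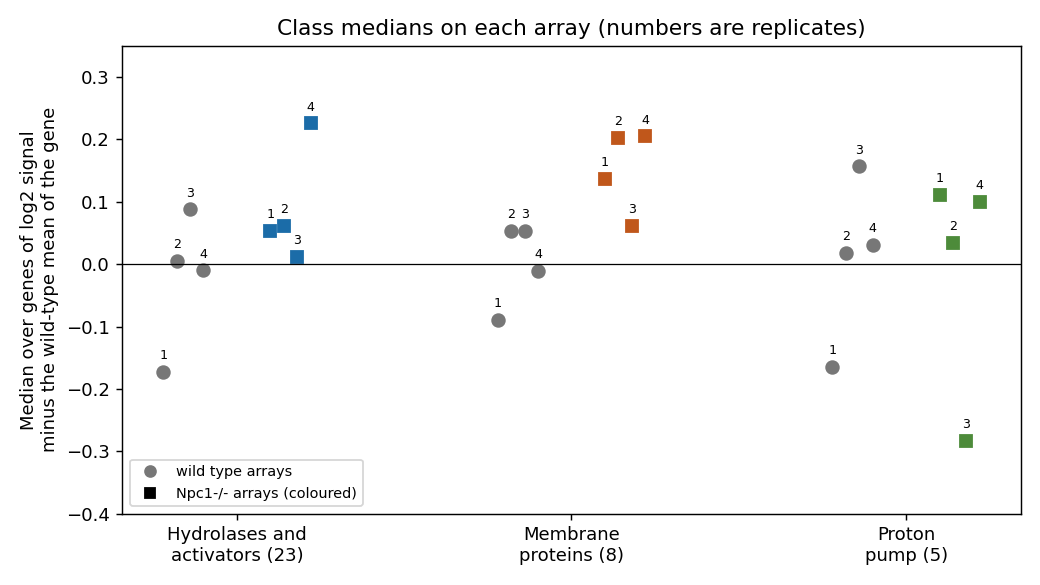
Median over the genes of each class of the log2 signal minus the gene's wild-type mean (y axis), for each array, with replicate numbers beside the points; circles are wild-type and squares Npc1-/- arrays. Only the membrane proteins separate, from 0.062 upward in Npc1-/- arrays against 0.054 at most in wild type, and for pump genes Npc1-/- replicate 3 is lowest at -0.283.

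A pair of arrays stood low across the members. Wild-type replicate 1 was the lowest wild-type array for 25 of the 36 genes (69.4%), and for 31.5% of all genes. Npc1-/- replicate 3 was the lowest Npc1-/- array for 21 of the 36 (58.3%), and for 30.1% of all genes, including 5 of the 5 pump genes. Both were hybridised on the same slide. At the high end, Npc1-/- replicate 4 was the highest Npc1-/- array for 19 of the 36 (52.8%), and for 35.3% of all genes. Wild-type replicate 3 was the highest wild-type array for 17 of the 36 (47.2%), and for 39.2% of all genes. Npc1-/- replicate 3 was also low in the choroid plexus markers other than Otx2. Ttr was at -1.68 there and at 0.96, 1.74 and 1.24 on the other Npc1-/- arrays, and Folr1 at -1.53 against 0.72, 1.40 and 1.13. Otx2 was at -1.67 there and at -1.59, -1.42 and -1.78 on the others. The part of that tissue in the low values of the array was not tested. On the slide of the 2 low arrays, pump genes differed by -0.263 (Atp6ap1), -0.121 (Atp6v1a), -0.118 (Atp6v1h), -0.088 (Atp6v0c) and 0.052 (Atp6v0d1). With the slide as a block the class medians were 0.068 for hydrolases, 0.116 for membrane proteins and -0.027 for the pump. Without wild-type replicate 1 the medians of hydrolases and membrane proteins were 0.050 and 0.116, and without Npc1-/- replicate 3 they were 0.095 and 0.154. Without Npc1-/- replicate 4 they were 0.057 and 0.12, and the pump median was -0.089.

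Several genes were read by more than 1 probe; the files assign some of these probes to different transcript records of the gene, so they need not read the same transcript. Of 69 probes for the members, 65 exceeded background clearly on 4 or more of the 8 arrays, and 4 (1 each of Arsb, Man2b1, Manba and Naglu) on 0 arrays. In the fit of single probes, 0 of the 65 passed, where 0.523% of all 27167 probes did. An unadjusted p under 0.05 was found for 4 of the 65, and the share of all probes with one was not counted. For 17 of the 21 genes with more than 1 such probe, all probes agreed in sign.

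The probes disagreed in sign for Atp6v1h, Ids, Ppt1 and Psap. Atp6v1h had probes at -0.068, -0.057 and 0.665, the last with 2 of 4 wild-type arrays well above background and an SE of 0.498. Ids had 0.033, 0.065, -0.015 and -0.293, the last with an SE of 0.188 and 3 of 4 wild-type arrays well above background. Ppt1 had 0.089, 0.138 (with arrays that did not overlap), 0.242 and -0.302. For the last of these the SE was 0.430, with wild-type replicate 2 at -2.62 and all other arrays from -4.84 to -4.18. Psap had -0.007 and 0.049. For Lamp2 the 3 probes gave 0.251, 0.240 and 0.069, and the arrays of the second did not overlap. The share of all probes whose arrays separate was not counted. For Cln3 and Mcoln1 the other probe gave 0.494 and 0.420, with SEs of 0.445 and 0.236. Man2b1 and Cd63 each had 1 probe above background, so their values have no other probe beside them.

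**Figure D4:**
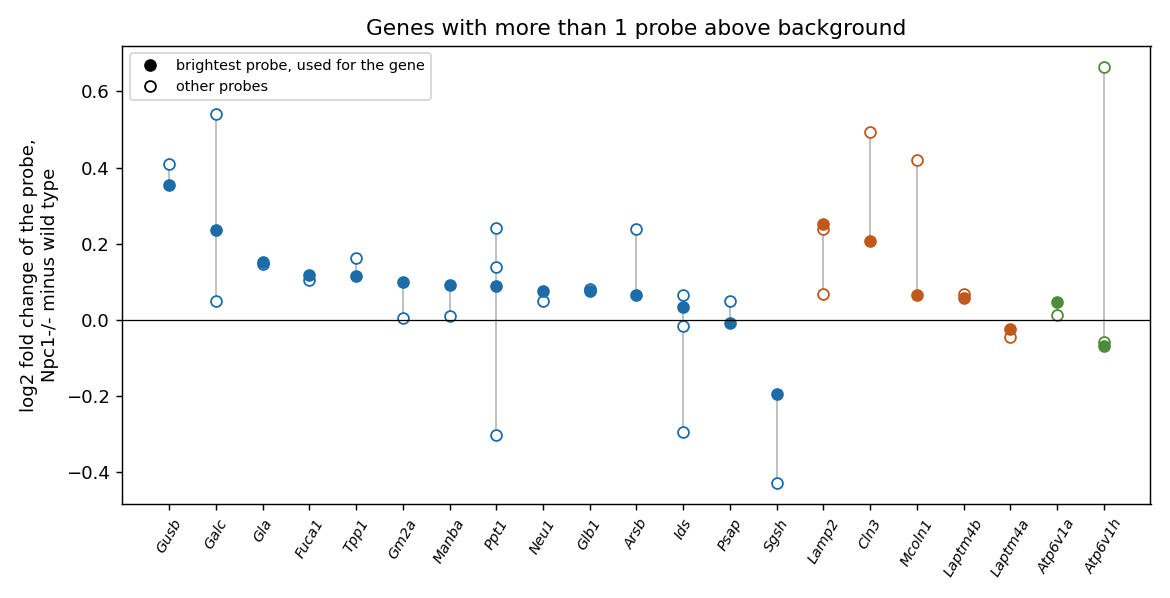
Log2 fold change of every probe above background (y axis, Npc1-/- minus wild type) for the 21 genes with more than 1 probe, blue for hydrolases, orange for membrane proteins and green for the pump; filled points are the brightest probe. The widest spread is that of Atp6v1h, from -0.068 to 0.665.

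Values of members with and without TCACGTG in their promoter overlapped, and no test was made between them. The 12 genes with it had a median log2 fold change of 0.046 (from -0.194 for Sgsh to 0.207 for Cln3), and the 21 genes without it one of 0.092 (from -0.135 to 0.528). The windows printed above for Lamp1, Gla, Mcoln1 and Cln3 go with fold changes of 0.047, 0.151, 0.065 and 0.207.

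The wider lysosome was described with 79 other genes, of which 77 were tested (Atp6v0d2 and Atp6v1b1 were not above background on enough arrays). Of these, 2 rose and 0 fell, where 0.734% and 0.0334% of all genes did. Positive values numbered 40 (51.9%, against 46.6% of all genes), and the median was 0.003. Cd68, a lysosomal glycoprotein of macrophages and microglia, was at -0.94, -0.96, -1.07 and -0.72 in the Npc1-/- arrays and -3.24, -2.81, -3.12 and -2.83 in the wild-type arrays. The groups lay far apart, with a log2 fold change of 2.08 ± 0.13 (SE), 4.23-fold, and a limma adjusted p of 0.00045. Slc11a1, a metal transporter of phagocyte lysosomes, was at -2.30, -2.18, -2.62 and -2.02 against -3.52, -2.99, -3.18 and -3.13 (0.93 ± 0.16, limma adjusted p = 0.0464). The call of Slc11a1 was lost when any array other than Npc1-/- replicate 3 was left out, with adjusted p from 0.0332 to 0.172 over the 8 arrays, and with the slide as a block (adjusted p = 0.0873).

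In the list of 20 other hydrolases, 16 values were positive (80.0%, against 46.6% of all genes), with a median of 0.135. Of the 20, 0 passed limma's adjusted test, where 0.767% of all genes did. An unadjusted p under 0.05 with a higher level in Npc1-/- mice was found for 6, and for 5.09% of all genes. The largest were Acp5, the tartrate-resistant acid phosphatase of macrophages and osteoclasts, at 1.21 ± 0.32 (SE; limma adjusted p = 0.232, 2 of 4 wild-type arrays well above background) and Man2b2, an alpha-mannosidase, at 0.38 ± 0.10 (adjusted p = 0.263). The groups of 5 of the 20 did not overlap (25.0%, against 2.96% of all genes), all higher in Npc1-/- mice, and Acp5 was among them. The list was chosen with earlier results of these data known, and no test was made of these shares. The 28 other membrane genes had a median of -0.065, the 15 other pump genes tested one of -0.021 and the 14 genes for sorting and delivery to lysosomes one of -0.013. In the pump list the largest values were those of Tcirg1 at 0.44 ± 0.16 (limma adjusted p = 0.515) and Atp6v1c2 at 0.351, and in the sorting list those of Gga2 at 0.227 and Sort1 at -0.111, none past the test.

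Of the lists of cell-type markers, only the microglial list held genes past the test of the genotypes. All 16 microglial markers had a positive value, with a median log2 fold change of 0.931, and 8 passed the test (0.734% of all genes were called higher), among them Trem2 at 1.495, Tyrobp at 1.313, C1qc at 1.299 and C1qa at 1.230. The 8 that did not pass ran from 0.138 (Tmem119) to 1.137 (C1qb), with P2ry12 at 0.246 and Csf1r at 0.470. The summed signal of the 16, as multiples of the array's 75th percentile, was 25.7 to 32.8 in Npc1-/- arrays and 11.3 to 15.3 in wild-type arrays. Bright markers weigh most in this sum, and the brightest was Ctss (mean log2 signal 3.368 in Npc1-/- and 2.219 in wild-type arrays). Of the 16, 15 were well above background on every array. The 10 oligodendrocyte markers all had negative values (median -0.602, Opalin -1.132, Mal -0.841); 0 passed, 8 had an unadjusted p under 0.05, as 2.31% of all genes did with a lower level, and their summed signal was 253 to 308 against 335 to 444. Their part in the values of Man2b1, Cd63, Gusb, Cd68, Slc11a1 and Galc was not tested. In whole cerebellum a change in the number of cells of a type and a change in RNA per cell cannot be told apart.

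All 12 markers of cerebellar neurons, the labelled tissue, were well above background on every array. Each of the 12 had a negative log2 fold change (median -0.261; Zic2 -0.562, Neurod1 -0.352), with 0 past the test and 2 at an unadjusted p under 0.05, as 2.31% of all genes were with a lower level, and a summed signal of 372 to 456 in Npc1-/- and 422 to 521 in wild-type arrays. The 4 forebrain markers tested summed to 0.590 to 0.804 in Npc1-/- and 0.568 to 0.828 in wild-type arrays, with 0 past the test (Neurod6 -0.737, Drd1 0.403). Of 10 astrocyte markers 0 passed (median 0.126; Gfap 1.083, limma adjusted p = 0.0516; Slc1a2 0.203). Of 6 choroid plexus markers 0 passed (Ttr -0.353, Kl 0.216), with sums of 2.06 to 10.7 against 5.19 to 7.71, the lowest on Npc1-/- replicate 3. Npc1 transcript fell by 1.99 on the log2 scale (limma adjusted p = 0.00045), lower on every Npc1-/- array than on any wild-type array; whether the probe lies in the disrupted stretch was not determined here. Well above background on the 8 arrays were 22193 to 28134 of 41174 probes, fewest on wild-type replicate 2.

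**Figure D5:**
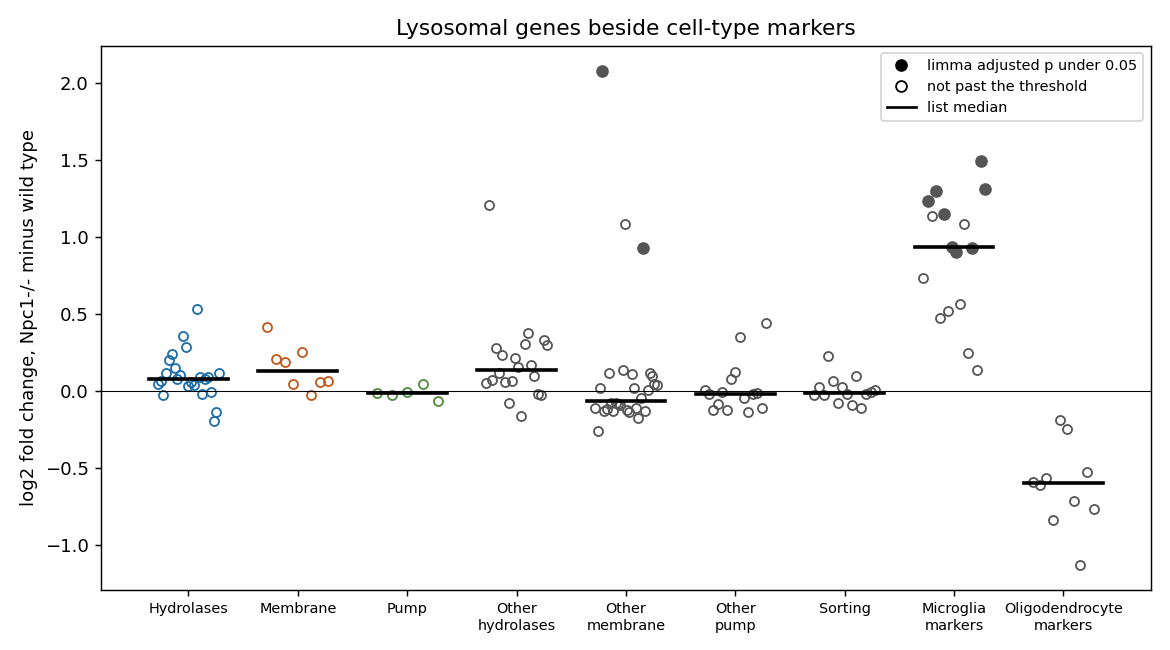
Log2 fold change of each gene (y axis, Npc1-/- minus wild type) in the 3 classes described, in 4 lists of other lysosomal genes and in microglial and oligodendrocyte markers; filled points passed limma's adjusted p of 0.05, bars are list medians, and Laptm5 stands in 2 lists. Class medians of 0.077, 0.127 and -0.012 sit near 0, while the microglial median is 0.931 and the oligodendrocyte median -0.602.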

How the data were processed

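The deposited intensity values are spot signals from Agilent Feature Extraction, version 9.5 in the submitters' processing notes, with background already subtracted per the file headers. Each was put on the log2 scale and the 75th percentile of the non-control spots of its array was subtracted; control spots were left out, spots flagged as outliers (74 to 115 per array) were set to missing and spots of a probe averaged. A probe was kept if 4 or more of the 8 arrays flagged it as well above background (27167 of 41174), and the brightest probe stood for a gene. Names were updated through RefSeq tables of GRCm38.p6 (22951 probes by accession, 6659 by symbol, 3109 by synonym, 8455 as in the files); 68 of the 69 member probes carry the member's symbol in the files, and the other, an Arsb probe, an older one.

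The test was limma's (version 3.58.1, R 4.3.3; moderated, two-sided, genotype as the one factor), with Benjamini-Hochberg adjustment over all 17984 genes. The genotype fit, without blocks or array weights, was checked on simulated gene values with differences of known size. Other steps were not checked in that way. Each array was taken as 1 mouse, so the p-values reflect variation among 4 arrays a genotype. Arrays lay on 4 slides scanned on 2 days; 3 slides held both genotypes. Array weights, other scalings, filters, blocks and leaving out each array were the alternatives. The main fit did not pair arrays by replicate number.

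The members and lists were chosen with earlier results of these data known. Every member is named; values on each array are given for the 3 largest differences and the brightest probe of each class. From the other lists, members past the test (at most 4) or else the 2 largest differences were named. Lamp1, Smpd1, Sgsh and the probes of Lamp2, Cln3 and Mcoln1 were described further after their values were seen. The microglial markers Tmem119, P2ry12, Csf1r, C1qb and Ctss were also named after their values were seen. So were the choroid plexus markers Folr1 and Otx2 and the differences of pump genes on a single slide. The Illumina arrays were not analysed here.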

Additional observations from a re-analysis of the deposited data

Results flagged for a closer look

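In 72 groups of 4 arrays (each member in each genotype), the gap between the extreme array and its nearest neighbour was set against the group's range, with Dixon's critical value for 4 samples as the limit, and 2 groups exceeded it; chance flags about 1 group in 20. Both were wild-type replicate 1 at the low end. For Lamp1 it had a log2 signal of 4.25, where the other wild-type arrays had 4.49 to 4.53 (gap over range 0.881). For Cd63 it had 3.95, where the others had 4.09 to 4.11 (0.876).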

How the results depend on the processing

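Of 648 fold changes of the 36 members under 18 alternatives, 580 kept their sign and their side of the threshold, 67 changed sign without passing the test (16 members, largest size 0.18) and 1 passed it. That was Man2b1 with array weights, which made the number of hydrolases called 1. Over all genes, the number called was 87 with quantile normalization, 59 with no filter on dim probes, 89 with probes above background on all 8 arrays, 38 with the slide as a block and 309 with array weights (245 higher and 64 lower, against 132 and 6), and 55 to 148 when an array was left out; the cause was not tested. With the replicate number as a block it was 27, and 0 members passed in that fit. After each gene's genotype mean was subtracted, correlations of same-numbered arrays were 0.149, 0.038, -0.445 and 0.202. The best-correlated wild-type array had the same number for Npc1-/- replicates 1 and 2 and another number for replicates 3 and 4. These values do not show pairing. Of the other lysosomal genes 1 was called with normexp background, with quantile normalization, with no filter, and with slide, scan day or replicate blocks, and 1 to 2 when an array was left out. Class medians ranged from 0.050 to 0.129 (hydrolases), 0.115 to 0.188 (membrane proteins) and -0.097 to 0.078 (pump), the last without a stable sign. The hydrolase median minus that of the membrane and pump genes also had no stable sign. It ranged from -0.016 with quantile normalization to 0.069 without wild-type replicate 1. The number of arrays limits what differences can be seen.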
